A study of Mus musculus with 30 samples.

Results

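White adipose tissue of obese mice holds macrophages that load with lipid, and their transcript Gpnmb differed 20.3-fold between the highest and the lowest of 14 adipose RNA-seq libraries from mice on one diet. These 14 were taken from 16 libraries of adipose tissue and 29 of the whole study. The classes were chosen by the measured level of Gpnmb in CPM, its estimated count divided by the library's total and multiplied by 1e6. The 7 highest libraries formed the Gpnmb-high class and the 7 lowest the Gpnmb-low class. They are not treatment groups, and Gpnmb itself is given as a description only. All animals were male C57BL/6J mice, 15 weeks old at collection. For 7 weeks they had eaten high-fat food combined with l-NAME, which blocks nitric oxide synthases. Each had received an adeno-associated virus of serotype 8, which mainly reaches the liver, carrying green fluorescent protein (AAV8-GFP) or coagulation factor XI (AAV8-F11). Diet and l-NAME were shared by every library, so no lean or untreated tissue stands beside them. The labels name neither the fat depot, nor the vectors' promoter, nor whether each library came from its own mouse. The p-values therefore measure only the spread between these libraries.

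Gpnmb encodes a transmembrane glycoprotein of the endosomal and lysosomal system. It is made in large amounts by macrophages that have taken up lipid, cells that in obese fat gather around dying adipocytes and also carry Trem2, Cd9 and the lysosomal lipase Lipa. Such macrophages hydrolyse lipid in lysosomes, which the vacuolar ATPase acidifies. Lysosomal genes, and Gpnmb with them, are known targets of the MiT/TFE transcription factors (Mitf, Tfeb, Tfe3 and Tfec), which read E-box sequences.

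The 250 bases before the RefSeq start (GRCm38.p6) of a pair of genes are shown. Gpnmb set the ranking, and Fnip1, which encodes a folliculin partner in the control of MiT/TFE factors, was a called gene with an E-box in this window. Capitals mark the E-box CACGTG, and both run 5′ to 3′ on the plus strand, the strand of both genes.
Gpnmb, chr6:49036268-49036517: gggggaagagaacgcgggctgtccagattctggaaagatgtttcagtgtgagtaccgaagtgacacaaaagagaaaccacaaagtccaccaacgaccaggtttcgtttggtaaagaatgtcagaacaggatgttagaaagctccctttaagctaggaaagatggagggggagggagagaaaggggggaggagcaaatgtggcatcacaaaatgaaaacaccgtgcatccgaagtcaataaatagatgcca
Fnip1, chr11:54437929-54438178: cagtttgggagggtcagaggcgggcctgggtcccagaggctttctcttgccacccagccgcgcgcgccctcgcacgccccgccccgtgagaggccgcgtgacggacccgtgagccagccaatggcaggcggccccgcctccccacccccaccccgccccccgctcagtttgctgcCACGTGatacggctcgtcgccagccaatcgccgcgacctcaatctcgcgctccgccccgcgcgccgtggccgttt
The Gpnmb window holds none of the motifs searched on both strands. The first of these was CACGTG, which reads the same on both strands. The next was its variant CATGTG. The last was GAGGAAGT, a sequence bound by the macrophage factor PU.1. None of the motifs contains another. Over all RefSeq windows of this length, 6.02% of 32851 held CACGTG. The share was 7.81% of 14399 windows of the genes tested. It was 9.27% of 3108 windows of genes called higher in the Gpnmb-high class and 7.07% of 2971 windows of genes called lower. Among called-higher members of the lipid-associated macrophage, lysosomal, vacuolar ATPase and MiT/TFE lists it was 15.4%, or 10 of 65 windows. These belonged to Ctsa, Atp6v0b, Ctsd, Lamp1, Glb1, Fnip1, Lgmn, Ctsl, Atp6v1a and Gla. In that set the other motifs were also more frequent than among the genes tested, CATGTG at 12.3% against 8.01% and GAGGAAGT at 6.15% against 2.51%. Not every gene had a window: the set held windows of 51 genes, and the genes tested, 15259 in all, windows of 11315. No share was computed for members of these lists that were not called. For called-higher genes that the naming rule picked, 7.77% of 103 windows held CACGTG. The matches describe letters in these windows and show no binding.

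Gpnmb (ENSMUSG00000029816, chr6:49036546-49070929, plus strand, GRCm38) ranged widely, with no break between the classes. In the high class it stood at 3319 CPM in L148 (F11), 2364 in L133 (GFP), 1404 in L135 (GFP), 1253 in L147 (F11), 1196 in L143 (F11), 1044 in L134 (GFP) and 998.5 in L138 (GFP). In the low class it stood at 995.5 CPM in L137 (GFP), 985.5 in L139 (GFP), 874 in L141 (F11), 453 in L144 (F11), 266 in L136 (GFP), 171 in L146 (F11) and 163 in L145 (F11). The last library inside the high class and the first outside it, L138 and L137, lay at almost the same level. The high class held 4 GFP and 3 F11 libraries and the low class 3 GFP and 4 F11. Gpnmb averaged 1062 ± 1092 CPM (SD, n = 7) with F11 and 1151 ± 633 CPM (SD, n = 7) with GFP. That difference of -89.5 CPM was smaller than the spread within either vector (exact permutation test over 3432 splits, two-sided, p = 0.867). It changed sign when L133, L144, L145 or L146 was left out.

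**Figure D1:**
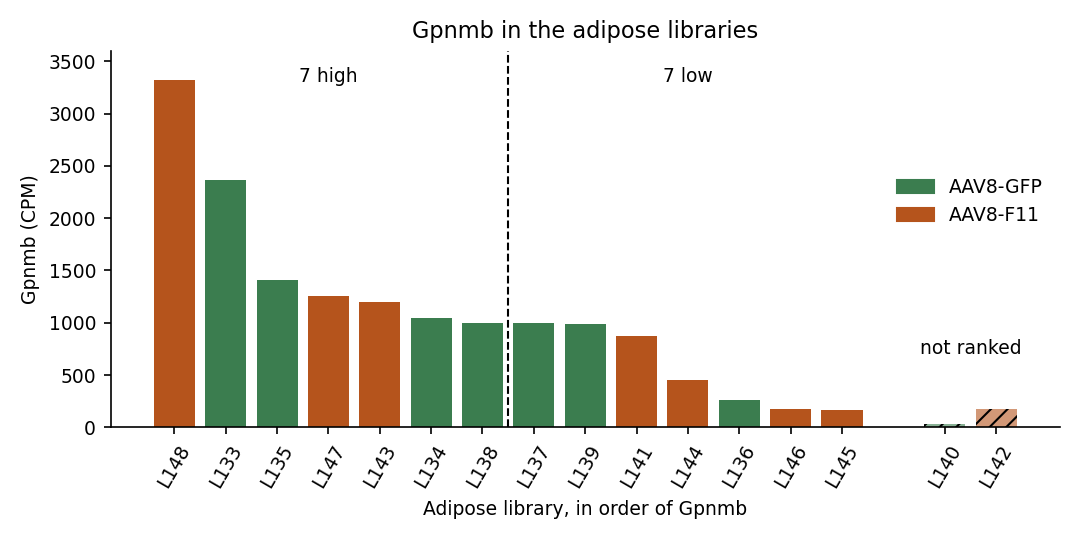
Gpnmb level in CPM (bars, 1 library each) in the 14 ranked adipose libraries, from highest to lowest, coloured by vector, with the dashed line between the classes and the 2 unranked libraries hatched at the right. The 7 high libraries sit between 998.5 and 3319 CPM and the 7 low libraries between 163 and 995.5 CPM, with GFP and F11 libraries in both.

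The libraries held 16.8 to 22.5 (high class) and 17.6 to 26.3 (low class) estimated counts in units of 1e6, and none was a repeat of another of the same vector. Libraries of different vectors were not compared in this way. Adipocyte transcripts were present in all 14. L140 and L142 were not ranked, since L140 carried heart muscle transcripts and L142 transcripts of the male reproductive tract. Alb (albumin), a liver transcript, was at 34.3 to 367 CPM in the high class and 7.32 to 3255 CPM in the low class. It was led by L136, L145 and L146, which are also the 3 libraries lowest in Gpnmb. F11 transcripts ranged from 0.108 to 4.52 CPM (median 0.622) in GFP libraries and from 0.515 to 15.9 CPM (median 5.50) in F11 libraries. The highest GFP value was in L136, the library highest in Alb. The ranges overlap, so they do not check the vector label of each library here.

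Large parts of the transcriptome followed the Gpnmb order. Of 15259 genes tested, 3211 (21.0%) were called higher and 3030 (19.9%) lower in the Gpnmb-high class. A call is a Benjamini-Hochberg adjusted p under 0.05 from edgeR's quasi-likelihood test, with the vector as covariate and Gpnmb removed. Every adjusted p below is from this test, and every fold change is a log2 ratio of high over low with its standard error (SE). The differences were mostly small, with a median size of 0.40 among called genes, and 463 higher and 404 lower genes differed more than 2-fold. In 863 genes (5.66%) all 7 high libraries lay above all 7 low ones, and in 348 (2.28%) all lay below. The median fold change over all genes tested was -0.0044. Because the classes come from a transcript of the same libraries, an adjusted p says that a gene varied with Gpnmb among these 14 libraries, and no cause is attached to it. CPM is a share of a library's RNA, and in bulk tissue fewer cells of a type and less RNA per cell cannot be told apart. Without L136, L145 and L146 the counts were 780 higher and 1124 lower. Without L148 and L133, the libraries highest in Gpnmb, they were 1835 and 1566. Members described as not called were also chosen after their values were seen, as the exceptions of their lists. Below, a gene's range and median in the 7 high libraries come first, and those in the 7 low libraries follow after "against".

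Genes of lipid-associated macrophages were higher almost as a block, which checks the ranking and is not evidence about it. In this list 23 of 24 tested members were called higher and 1 lower (median log2 fold change 1.08), and 13 did not overlap between the classes. Dcstamp encodes a membrane protein of fusing phagocytes and measured 5.52 to 15.5 CPM (median 7.82) against 1.25 to 4.97 CPM (median 2.74). Its fold change was 1.45 ± 0.31 SE, adjusted p = 0.00422, and the classes did not overlap. Plin2, a coat protein of lipid droplets, measured 841 to 1611 CPM (median 989) against 408 to 878 CPM (median 485) (fold change 1.01 ± 0.20 SE, adjusted p = 0.00347). Ctsl (cathepsin L), a lysosomal protease, was at 1209.8 to 2102 CPM (median 1473) against 587 to 1246 CPM (median 744) (fold change 0.86 ± 0.18 SE, adjusted p = 0.00414). Cstb, an inhibitor of such proteases, was at 101 to 165 CPM (median 134.5) against 44.8 to 102 CPM (median 64.5), with a fold change of 0.93 ± 0.18 SE, adjusted p = 0.00348. In these last 3 genes the lowest high library fell just under the highest low library. Trem2, Itgax (CD11c), Lipa and Spp1 (osteopontin) were named after their values were seen. The lipid-sensing receptor Trem2 stood at 43.5 to 113 CPM (median 59.5) against 8.13 to 42.5 CPM (median 19.1) (fold change 1.48 ± 0.40 SE, adjusted p = 0.0118). Lipa stood at 443 to 996 CPM (median 538) against 146.9 to 427 CPM (median 210.4). Itgax stood at 165 to 402 CPM (median 190.01) against 34.4 to 150.2 CPM (median 74.5). Of these 4, Spp1 overlapped between the classes, at 21.6 to 75.6 CPM (median 32.2) against 6.36 to 25.1 CPM (median 15.3). Acp5, the tartrate-resistant phosphatase of osteoclasts and macrophages, went the other way at 190.01 to 254 CPM (median 214) against 243 to 270.2 CPM (median 253) (fold change -0.25 ± 0.06 SE, adjusted p = 0.00749). All but 1 high library lay below its low median.

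Markers shared by most macrophages followed the same order. Among pan-macrophage genes 14 of 15 tested members were called higher and 0 lower (median log2 fold change 0.83). Their summed level was 3348 to 6060.0 CPM (median 3809) in the high class and 1473 to 3322 CPM (median 2113) in the low class, with no overlap. Fcgr1, the high-affinity IgG receptor, was at 11.8 to 28.8 CPM (median 18.3) against 4.14 to 12.3 CPM (median 6.91) (fold change 1.41 ± 0.26 SE, adjusted p = 0.00277). Csf1r, the receptor for macrophage colony-stimulating factor, was at 275 to 508 CPM (median 312) against 122 to 273 CPM (median 176) (fold change 0.88 ± 0.21 SE, adjusted p = 0.00642). Csf1r separated the classes and Fcgr1 overlapped slightly. The complement genes C1qb and C1qc, whose family shares sequence, had fold changes of 0.83 ± 0.19 and 0.79 ± 0.17. Cd68, a lysosomal membrane protein of phagocytes named after its values were seen, was at medians of 275 against 108 CPM. Mertk, a receptor for dying cells, was the exception. It measured 46.2 to 62.9 CPM (median 53.01) against 48.2 to 74.96 CPM (median 59.00), and its fold change of -0.21 ± 0.11 SE, adjusted p = 0.125 was not called.

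Resident-type macrophage markers did not move as a block, with 3 higher and 1 lower of 12 (median log2 fold change -0.06), the share called higher being near the background. Mrc1, the mannose receptor CD206, was at 235 to 389.6 CPM (median 243) against 103 to 212 CPM (median 143.4) (fold change 0.91 ± 0.18 SE, adjusted p = 0.00335). The folate receptor Folr2 (0.79 ± 0.18) and the lectin Clec10a (0.64 ± 0.19) were the other higher members, the call of Clec10a being lost without L148 (adjusted p = 0.0531). Retnla, a secreted product of alternatively activated macrophages, was lower at 71.9 to 219.5 CPM (median 173) against 198 to 382 CPM (median 336) (fold change -0.99 ± 0.24 SE, adjusted p = 0.007). Cd163, a haemoglobin scavenger receptor, had medians of 66.96 against 68.00 CPM, and Timd4, a phosphatidylserine receptor, 2.01 against 2.13 CPM. Neither was called. Mrc1 and Folr2 separated the classes in full, whereas Cd163 and Timd4 had high libraries on both sides of the low median. Monocyte genes gave 3 higher and 0 lower of 9 (median log2 fold change 0.33). Dendritic cell genes gave 1 higher and 3 lower of 11 (median log2 fold change -0.03) and did not move as a block. Over all genes tested the shares were 21.0% higher and 19.9% lower. The dendritic cell markers not called included Xcr1 (0.30), Clec9a (-0.15), Cd209a (-0.03) and Batf3 (-0.02). The secreted lectin Chil3 of the monocyte list was higher at 4.19 to 7.92 CPM (median 6.96) against 0.836 to 7.11 CPM (median 1.36). Zbtb46, a transcription factor of conventional dendritic cells, was lower at 20.2 to 30.3 CPM (median 23.3) against 29.5 to 37.6 CPM (median 34.4) (fold change -0.49 ± 0.09 SE, adjusted p = 0.00291). Flt3, a cytokine receptor of dendritic cell precursors, was higher at 0.68 ± 0.19.

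**Figure D2:**
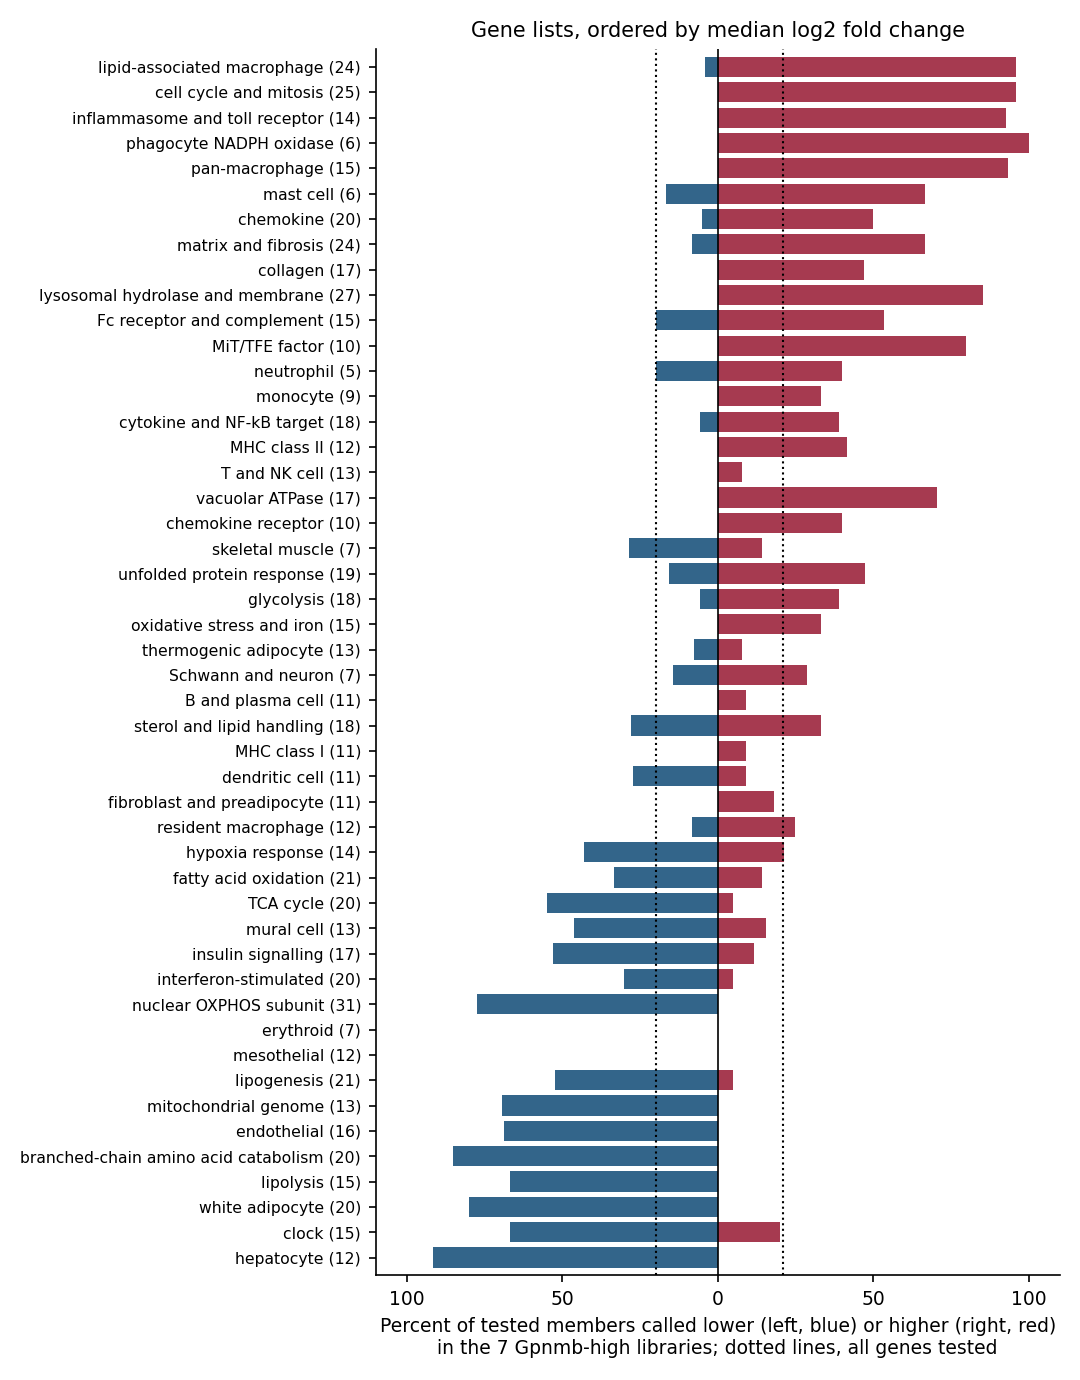
Percent of the tested members of each gene list (number in brackets) called higher (right, red) or lower (left, blue) in the 7 Gpnmb-high libraries, with dotted lines at the shares over all genes tested, 21.0% and 19.9%. Lists are ordered by median log2 fold change, from lipid-associated macrophage (1.08) at the top to hepatocyte (-3.79) at the bottom, and lists with under 5 tested members are not drawn.

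Lysosomal genes were higher, with smaller medians than the lipid-associated and pan-macrophage lists. Of the lysosomal hydrolases and membrane proteins 23 of 27 tested members were called higher and 0 lower (median log2 fold change 0.49). Vacuolar ATPase subunits gave 12 higher and 0 lower of 17 (median log2 fold change 0.26). The MiT/TFE factors and their regulators gave 8 higher and 0 lower of 10 (median log2 fold change 0.43). Npc1, which moves cholesterol out of lysosomes, ran at 92.6 to 157 CPM (median 106) against 57.5 to 88.03 CPM (median 68.2) (fold change 0.63 ± 0.13 SE, adjusted p = 0.00403). Pla2g15, a phospholipase, ran at 73.2 to 115 CPM (median 82.6) against 32.8 to 71.5 CPM (median 45.8). Neither overlapped between the classes. Ctsh, another cathepsin, overlapped slightly at 101 to 146.1 CPM (median 116) against 64.9 to 107 CPM (median 75.5) (fold change 0.52 ± 0.10). Among the lysosomal genes not called, Mcoln1, Neu1 and Gaa had fold changes of 0.06, 0.03 and -0.10.

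In the vacuolar ATPase, the membrane subunit Atp6v0a1 was at 429 to 645 CPM (median 478) against 194 to 403 CPM (median 233) (fold change 0.89 ± 0.16 SE, adjusted p = 0.00248). The catalytic subunit Atp6v1a was at 259 to 493 CPM (median 288) against 132 to 256 CPM (median 152) (fold change 0.87 ± 0.18 SE, adjusted p = 0.00412). Its partner Atp6v1b2 was at 345 to 593 CPM (median 388) against 161 to 332 CPM (median 201). In all 3 genes the lowest high library stood above the highest low library. Atp6v1c1, at 0.56 ± 0.13, had the same values as a second gene ID in the table, so its reads are shared and its level is uncertain. Among the regulators, Tfec, the MiT/TFE factor most restricted to macrophages, was at 1.29 to 4.33 CPM (median 3.20) against 0.776 to 1.64 CPM (median 1.22) (fold change 1.25 ± 0.25 SE, adjusted p = 0.00357). Fnip2 measured 71.4 to 165 CPM (median 91.5) against 32.8 to 63.8 CPM (median 43.9) (fold change 1.06 ± 0.23 SE, adjusted p = 0.00475). Fnip1, whose window is printed above, measured 52.2 to 81.9 CPM (median 59.3) against 41.3 to 50.5 CPM (median 45.2) (fold change 0.40 ± 0.09 SE, adjusted p = 0.00486). Both encode partners of folliculin, and both separated the classes. The autophagy receptor Sqstm1 did so too, at 416 to 495 CPM (median 439.5) against 347 to 386 CPM (median 375), although its fold change was only 0.24 ± 0.05 SE, adjusted p = 0.00517. Mitf, named after its values were seen, was at 32.1 to 60.6 CPM (median 38.02) against 15.3 to 31.4 CPM (median 25.2).

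Genes of sterol and lipid handling moved in both directions. The list of sterol and lipid handling gave 6 higher and 5 lower of 18 (median log2 fold change 0.00017). The scavenger receptor Msr1, which takes up modified lipoprotein, stood at 40.2 to 92.5 CPM (median 47.03) against 15.00 to 35.2 CPM (median 18.9) (fold change 1.33 ± 0.26 SE, adjusted p = 0.00337). Olr1, the receptor for oxidised LDL, stood at 2.99 to 8.18 CPM (median 3.97) against 0.692 to 2.78 CPM (median 1.27) (fold change 1.60 ± 0.30 SE, adjusted p = 0.00288). Pltp, the phospholipid transfer protein, stood at 509 to 776 CPM (median 607) against 198 to 451 CPM (median 276) (fold change 0.97 ± 0.20 SE, adjusted p = 0.00395). The classes were separate in all 3 genes. Soat1, which esterifies cholesterol for storage, was named after its values were seen and had medians of 155 against 65.3 CPM. Apoe, a lipoprotein ligand made by liver, macrophages and adipocytes, was lower at 1382 to 1669.9 CPM (median 1529.9) against 1622 to 3766 CPM (median 2768) (fold change -0.90 ± 0.16 SE, adjusted p = 0.00247). Cyp27a1, the sterol 27-hydroxylase, was lower at 38.3 to 47.2 CPM (median 43.03) against 45.2 to 101 CPM (median 73.2) (fold change -0.82 ± 0.15 SE, adjusted p = 0.00292). Both overlapped between the classes, and both are also liver transcripts. The efflux transporters Abca1 (0.03) and Abcg1 (0.33) and the liver X receptor Nr1h3 (-0.09) were not called. Nor were the uptake receptors Cd36 (0.12) and Scarb1 (-0.17).

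Innate immune sensors were higher. Of the inflammasome and toll-like receptor genes 13 of 14 tested members were called higher and 0 lower (median log2 fold change 0.92), 7 of them without overlap. Tlr2, a sensor of bacterial lipoproteins, was at 12.3 to 21.7 CPM (median 16.1) against 6.72 to 10.4 CPM (median 8.08) (fold change 0.88 ± 0.12 SE, adjusted p = 0.00223). The endosomal RNA sensor Tlr7 was at 23.3 to 44.3 CPM (median 27.6) against 7.14 to 20.6 CPM (median 11.8) (fold change 1.21 ± 0.23 SE, adjusted p = 0.00332). The DNA sensor Tlr9 was at 4.77 to 7.37 CPM (median 6.53) against 2.13 to 4.65 CPM (median 3.10) (fold change 1.02 ± 0.16 SE, adjusted p = 0.00223). Like Casp1, the protease of inflammasomes, at 29.5 to 46.5 CPM (median 35.9) against 13.6 to 25.8 CPM (median 16.4), they separated the classes. Subunits of the phagocyte NADPH oxidase gave 6 higher and 0 lower of 6 (median log2 fold change 0.91). Its catalytic subunit Cybb measured 151 to 299 CPM (median 176) against 62.7 to 138.1 CPM (median 89.1) (fold change 0.99 ± 0.23 SE, adjusted p = 0.0066), and the GTPase Rac2 had a fold change of 0.82 ± 0.20. Fc receptors and complement gave 8 higher and 3 lower of 15 (median log2 fold change 0.44). Their shared signalling chain Fcer1g was at 43.4 to 76.2 CPM (median 55.5) against 18.9 to 38.5 CPM (median 25.5) (fold change 0.94 ± 0.19 SE, adjusted p = 0.00412). The anaphylatoxin receptor C3ar1 was at 157 to 389 CPM (median 197) against 29.7 to 137.002 CPM (median 71.2) (fold change 1.54 ± 0.36 SE, adjusted p = 0.00652). Neither overlapped. The MHC class II list gave 5 higher and 0 lower of 12 (median log2 fold change 0.30). Its called members were the peptide loader H2-DMb1 (1.04 ± 0.19), the regulator Ciita and the costimulatory Cd80, Cd86 and Cd40. The class II chains H2-Aa (0.33), H2-Ab1 (0.24) and H2-Eb1 (0.30) and their partner Cd74 (0.33) were not called. MHC class I genes gave 1 higher and 0 lower of 11 (median log2 fold change -0.02).

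Secreted signals were mixed. Chemokines gave 10 higher and 1 lower of 20 (median log2 fold change 0.56), and their receptors 4 higher and 0 lower of 10 (median log2 fold change 0.20). Ccl2, which draws monocytes, stood at 19.3 to 41.2 CPM (median 31.1) against 7.64 to 24.5 CPM (median 11.96) (fold change 1.08 ± 0.22 SE, adjusted p = 0.00372). Cxcl16, a membrane-bound scavenger and chemokine, stood at 17.3 to 28.9 CPM (median 23.4) against 12.2 to 20.03 CPM (median 12.9) (fold change 0.70 ± 0.13 SE, adjusted p = 0.00256). Both overlapped between the classes. Ccl11 (eotaxin) was lower, at 42.6 to 64.5 CPM (median 52.4) against 58.3 to 72.1 CPM (median 67.4) (fold change -0.32 ± 0.09 SE, adjusted p = 0.0148). Cytokines and NF-kB targets gave 7 higher and 1 lower of 18 (median log2 fold change 0.32). The largest called differences in this list were in Il10, a cytokine that restrains inflammation, and Il1rn. The interleukin 1 receptor antagonist Il1rn was at 41.7 to 152 CPM (median 64.6) against 6.28 to 41.6 CPM (median 14.99) (fold change 1.80 ± 0.43 SE, adjusted p = 0.00754). Its lowest high and highest low library were almost equal. Il10 was low throughout, at 0.720 to 1.66 CPM (median 0.843) against 0 to 0.385 CPM (median 0.306) (fold change 2.03 ± 0.43 SE, adjusted p = 0.00419). Tnf, named after its values were seen, was at 1.07 to 3.09 CPM (median 2.06) against 0.851 to 1.98 CPM (median 1.11) (fold change 0.73 ± 0.25 SE, adjusted p = 0.0314). Nfkbia, the NF-kB inhibitor, was lower at -0.52 ± 0.14.

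Interferon-stimulated genes gave 1 higher and 6 lower of 20 (median log2 fold change -0.23). Irf7, a transcription factor of the interferon response, was lower at 14.5 to 21.1 CPM (median 15.6) against 15.3 to 39.7 CPM (median 28.2) (fold change -0.61 ± 0.18 SE, adjusted p = 0.0179). Mx1, an antiviral GTPase, was the called-higher member, at 4.64 to 7.13 CPM (median 5.87) against 3.52 to 4.51 CPM (median 4.37) (fold change 0.55 ± 0.12 SE, adjusted p = 0.00428). Mx1 separated the classes and Irf7 overlapped. The call of Irf7 was lost without L136 or L148 (highest adjusted p = 0.0552). Without L136, L145 and L146 the calls in that list were 0 higher and 0 lower (median -0.11).

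Proliferation genes followed Gpnmb in nearly every member. Of the genes of the cell cycle and mitosis 24 of 25 tested members were called higher and 0 lower (median log2 fold change 0.93), 7 of them without overlap. Rrm2, a subunit of ribonucleotide reductase, was at 9.88 to 17.8 CPM (median 14.6) against 5.59 to 9.57 CPM (median 6.42) (fold change 0.99 ± 0.15 SE, adjusted p = 0.00223). Mcm2, a part of the replicative helicase, was at 14.2 to 21.8 CPM (median 18.4) against 7.08 to 13.4 CPM (median 8.99) (fold change 0.89 ± 0.14 SE, adjusted p = 0.00223). Mcm5, of the same complex, was at 16.5 to 28.9 CPM (median 23.95) against 8.11 to 17.1 CPM (median 10.2) (fold change 1.05 ± 0.18 SE, adjusted p = 0.00241). Rrm2 and Mcm2 separated the classes and Mcm5 overlapped slightly. Top2a, a topoisomerase of dividing cells, measured 29.2 to 65.97 CPM (median 46.4) against 17.6 to 31.6 CPM (median 19.2) (fold change 1.10 ± 0.19 SE, adjusted p = 0.00232). Mki67 (Ki-67), named after its values were seen, measured 46.6 to 96.2 CPM (median 57.98) against 21.9 to 48.2 CPM (median 25.4). Tyms (thymidylate synthase), at 0.05, was the member not called. Which cells divided was not tested in this bulk RNA.

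Matrix genes were higher, among them chains of collagen and the enzyme that crosslinks them. Collagens gave 8 higher and 0 lower of 17 (median log2 fold change 0.49). Other genes of matrix and fibrosis gave 16 higher and 2 lower of 24 (median log2 fold change 0.52). Lox (lysyl oxidase), the crosslinking enzyme, stood at 189 to 282 CPM (median 231) against 93.4 to 185 CPM (median 111) (fold change 0.93 ± 0.14 SE, adjusted p = 0.00223). Mmp2, a gelatinase, stood at 78.1 to 155 CPM (median 99.01) against 38.9 to 71.3 CPM (median 51.2) (fold change 1.04 ± 0.18 SE, adjusted p = 0.00256). Lum (lumican), a proteoglycan of collagen fibrils, stood at 129 to 243 CPM (median 168) against 65.7 to 149.8 CPM (median 75.04) (fold change 1.05 ± 0.20 SE, adjusted p = 0.003). Lox and Mmp2 separated the classes, and in Lum 1 low library, L139, lay among the high ones. Col1a1 measured 761 to 1482 CPM (median 919) against 292 to 819 CPM (median 445) (fold change 1.15 ± 0.23 SE, adjusted p = 0.00372). Col3a1 measured 2418 to 4556 CPM (median 2999) against 1265 to 2998 CPM (median 1471) (fold change 0.95 ± 0.21 SE, adjusted p = 0.00504). Both are chains of fibrillar collagen. The 9 collagen genes not called included the fibrillar chains Col5a1 (0.28) and Col5a3 (-0.06) and the basement membrane chains Col4a1 (0.16) and Col15a1 (-0.04). Timp1, an inhibitor of matrix proteases named after its values were seen, was at 10.6 to 44.02 CPM (median 20.6) against 1.75 to 14.2 CPM (median 4.14) (fold change 2.15 ± 0.43 SE, adjusted p = 0.00357). Timp3, an inhibitor bound to matrix, was lower at 443 to 661 CPM (median 614) against 675 to 1034 CPM (median 932) (fold change -0.72 ± 0.11 SE, adjusted p = 0.00223), with no overlap. Markers of fibroblasts and preadipocytes gave 2 higher and 0 lower of 11 (median log2 fold change -0.03). Their growth factor receptor Pdgfra was at 60.8 to 95.8 CPM (median 76.5) against 43.3 to 67.03 CPM (median 59.05) (fold change 0.39 ± 0.11 SE, adjusted p = 0.0114).

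**Figure D3:**
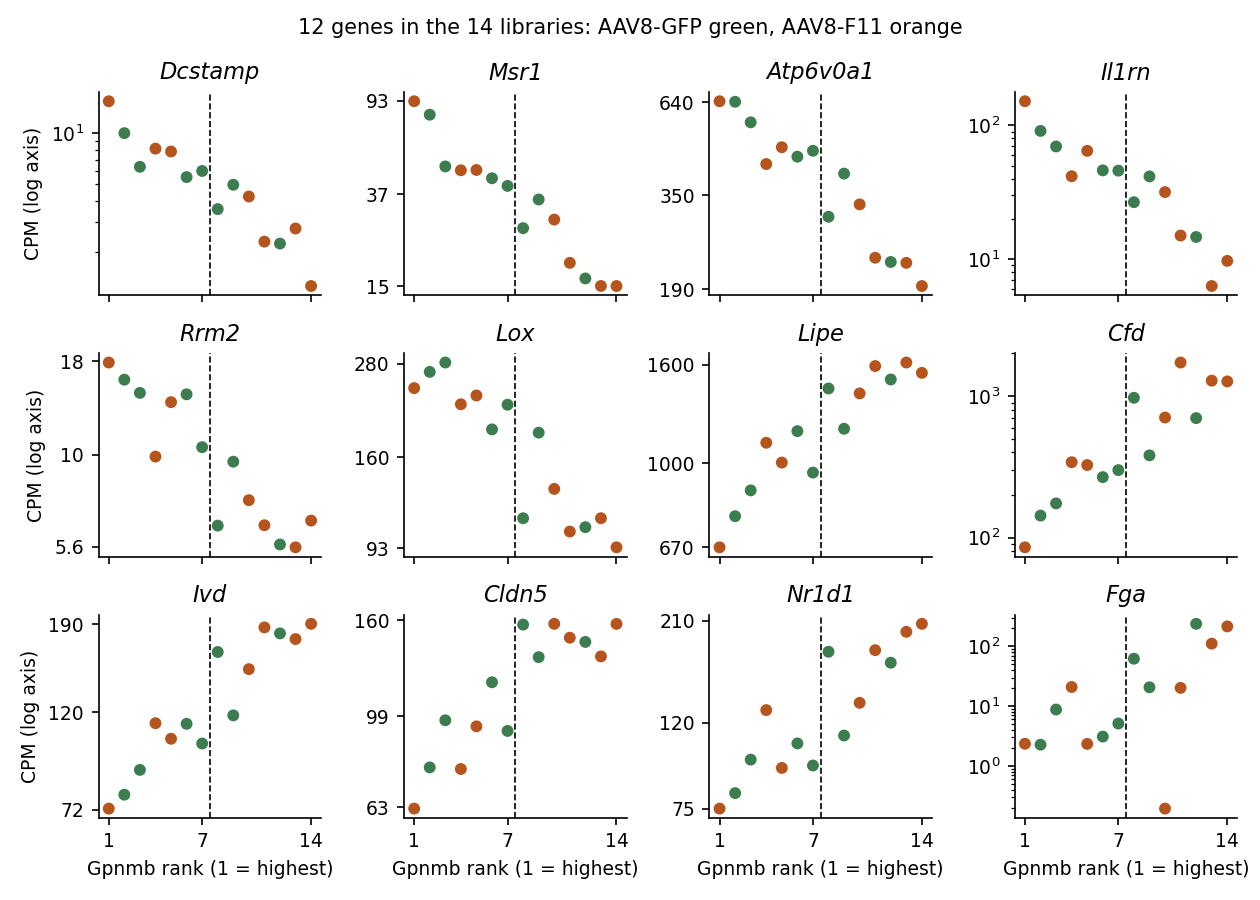
CPM (log axis) of 12 genes in the 14 libraries (points, green AAV8-GFP and orange AAV8-F11) against the Gpnmb rank, 1 being the highest, with a dashed line between the classes. Dcstamp, Msr1, Atp6v0a1, Il1rn, Rrm2 and Lox are higher on the left, Lipe, Cfd, Ivd, Cldn5 and Nr1d1 lower, and Fga (fibrinogen, a liver transcript) is highest at ranks 12, 13 and 14.

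Adipocyte transcripts were lower in the Gpnmb-high class. Of the white adipocyte genes 0 of 20 tested members were called higher and 16 lower (median log2 fold change -0.54), 6 of them without overlap. Lipe (hormone-sensitive lipase) ran at 669 to 1165 CPM (median 956) against 1178 to 1615 CPM (median 1489.9) (fold change -0.66 ± 0.12 SE, adjusted p = 0.00261). Plin1 (perilipin 1), the coat of the fat droplet, is a member of the lipolysis list as well and ran at 815 to 1217 CPM (median 1130.1) against 1284 to 1726 CPM (median 1523) (fold change -0.49 ± 0.10 SE, adjusted p = 0.00357). Cfd (adipsin), a complement protease secreted by adipocytes, ran at 85.6 to 341 CPM (median 268) against 382 to 1726 CPM (median 973) (fold change -1.99 ± 0.35 SE, adjusted p = 0.00258). All 3 separated the classes. Cebpa, a transcription factor of adipocytes, overlapped slightly at 338 to 432 CPM (median 388) against 421 to 592 CPM (median 522) (fold change -0.44 ± 0.08 SE, adjusted p = 0.00253). Adipoq (adiponectin), Retn (resistin) and the beta-3 adrenoceptor Adrb3 were named after their values were seen. Adipoq stood at 953 to 2032 CPM (median 1719) against 2105 to 3038 CPM (median 2533), with no overlap. Retn stood at 64.5 to 266 CPM (median 187) against 258 to 597 CPM (median 518). Adrb3 stood at 47.2 to 261 CPM (median 109) against 239 to 798 CPM (median 445). The adipokine Lep (leptin) had all 7 high libraries above the low median, at 3564 to 4786 CPM (median 4382) against 1585 to 4403 CPM (median 2852), but its fold change of 0.43 ± 0.19 SE, adjusted p = 0.0838 was not called. Lpl (lipoprotein lipase) was not called either, at 10808 to 13248 CPM (median 12292) against 9392 to 13601 CPM (median 13234).

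Lipolysis genes, which share members with the adipocyte list, gave 0 higher and 10 lower of 15 (median log2 fold change -0.49). Lipogenesis genes gave 1 higher and 11 lower of 21 (median log2 fold change -0.33). Pde3b, which ends the cAMP signal that drives lipolysis, measured 204 to 289 CPM (median 245) against 283 to 432 CPM (median 338) (fold change -0.57 ± 0.09 SE, adjusted p = 0.00223). Pck1, which makes glycerol phosphate for re-esterification in adipocytes, measured 266 to 952 CPM (median 422) against 759 to 2924 CPM (median 1944) (fold change -1.93 ± 0.31 SE, adjusted p = 0.00223). Thrsp, a promoter of lipogenesis, measured 81.01 to 292 CPM (median 128) against 239 to 532 CPM (median 468) (fold change -1.43 ± 0.30 SE, adjusted p = 0.00432). Pck1 is also a liver transcript, and these 3 overlapped between the classes. The fatty acid synthase Fasn, at 1124 to 2114 CPM (median 1905) against 1029.8 to 2362 CPM (median 1593), was not called. The glycerol phosphate dehydrogenase Gpd1 was higher, at 806 to 1254 CPM (median 851) against 542 to 885 CPM (median 674) (fold change 0.43 ± 0.12 SE, adjusted p = 0.0157). Insulin signalling genes gave 2 higher and 9 lower of 17 (median log2 fold change -0.20). Slc2a4, the insulin-responsive glucose transporter, stood at 41.9 to 79.05 CPM (median 70.4) against 78.3 to 134.7 CPM (median 124) (fold change -0.94 ± 0.17 SE, adjusted p = 0.00262). Ptpn1, a phosphatase that switches off the insulin receptor, was higher at 64.8 to 101 CPM (median 74.4) against 43.1 to 65.6 CPM (median 53.2) (fold change 0.48 ± 0.12 SE, adjusted p = 0.00821).

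Genes that break down branched-chain amino acids, a pathway that adipocytes run in mitochondria, were lower in nearly every member. Of these genes 0 of 20 tested members were called higher and 17 lower (median log2 fold change -0.48), and 10 did not overlap between the classes. The transaminase Bcat2, the first step, was at 67.1 to 86.9 CPM (median 78.3) against 87.2 to 122 CPM (median 106) (fold change -0.53 ± 0.08 SE, adjusted p = 0.00223). Ivd, which oxidises a leucine product, was at 72.4 to 113 CPM (median 102) against 118 to 191 CPM (median 176) (fold change -0.81 ± 0.13 SE, adjusted p = 0.00223). Hibch, of the valine branch, was at 62.4 to 91.1 CPM (median 82.03) against 96.9 to 126 CPM (median 113) (fold change -0.56 ± 0.09 SE, adjusted p = 0.00223). These 3 separated the classes. Dbt, a subunit of the branched-chain keto acid dehydrogenase, overlapped by a small margin at 52.5 to 73.4 CPM (median 59.8) against 72.4 to 95.8 CPM (median 91.9) (fold change -0.57 ± 0.08 SE, adjusted p = 0.00223). Members not called included Dld (-0.09), a subunit shared with other dehydrogenases, and the inhibiting kinase Bckdk (-0.10).

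Mitochondrial genes were lower by small amounts. Nuclear-encoded subunits of oxidative phosphorylation gave 0 higher and 24 lower of 31 (median log2 fold change -0.25), and transcripts of the mitochondrial genome 0 higher and 9 lower of 13 (median log2 fold change -0.38). The TCA cycle gave 1 higher and 11 lower of 20 (median log2 fold change -0.19), and fatty acid oxidation 3 higher and 7 lower of 21 (median log2 fold change -0.13). Ndufb8, of complex I, was at 84.1 to 95.3 CPM (median 92.7) against 96.7 to 125 CPM (median 115) (fold change -0.36 ± 0.06 SE, adjusted p = 0.00223). Uqcrfs1, of complex III, was at 89.3 to 102 CPM (median 93.4) against 104 to 134.3 CPM (median 118) (fold change -0.34 ± 0.06 SE, adjusted p = 0.00256). The mitochondrial transcript mt-Atp6 was at 2957 to 3265 CPM (median 3119) against 3593 to 6356 CPM (median 4646) (fold change -0.60 ± 0.12 SE, adjusted p = 0.00329). None of the 3 overlapped. As a share of all counts, the mitochondrial genome took 3.89 to 4.88% in the high and 4.65 to 6.71% in the low class. Suclg2, of succinyl-CoA synthetase, was at 37.7 to 52.4 CPM (median 44.4) against 53.6 to 81.5 CPM (median 60.5) (fold change -0.57 ± 0.11 SE, adjusted p = 0.00325). Both carnitine palmitoyltransferases named here ran against their list. Cpt1a was higher at 204 to 287 CPM (median 231) against 156 to 206 CPM (median 166) (fold change 0.46 ± 0.08 SE, adjusted p = 0.00241), and the muscle type Cpt1b at 6.61 to 10.2 CPM (median 8.19) against 3.21 to 5.85 CPM (median 4.81) (fold change 0.77 ± 0.15 SE, adjusted p = 0.00347). The sign of Cpt1b turned when L140 and L142 were added (-0.54). Thermogenic adipocyte genes gave 1 higher and 1 lower of 13 (median log2 fold change 0.14), and Ucp1 was too low to be tested.

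Glycolysis genes gave 7 higher and 1 lower of 18 (median log2 fold change 0.18). Pkm (pyruvate kinase) was at 410.5 to 605 CPM (median 450.1) against 266 to 404 CPM (median 309.9) (fold change 0.52 ± 0.11 SE, adjusted p = 0.00388), with no overlap. The lactate transporter Slc16a3 had a fold change of 0.78 ± 0.17 and Hk3, a hexokinase of myeloid cells, of 1.31 ± 0.37. Hk2, the hexokinase of insulin-responsive tissue, was lower at -0.24 ± 0.09, but lost its call in 10 of the 14 fits that left out 1 library (highest adjusted p = 0.117).

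Endothelial transcripts were lower as well. Of these genes 0 of 16 tested members were called higher and 11 lower (median log2 fold change -0.41), 4 of them without overlap. Cldn5 (claudin 5), of endothelial tight junctions, stood at 62.6 to 117 CPM (median 92.1) against 133.01 to 157 CPM (median 146.5) (fold change -0.79 ± 0.11 SE, adjusted p = 0.00223). Robo4, a guidance receptor of vessels, stood at 55.3 to 99.9 CPM (median 72.9) against 97.99 to 156 CPM (median 131) (fold change -0.80 ± 0.13 SE, adjusted p = 0.00223). The VEGF receptors Kdr and Flt1 were named after their values were seen. Kdr stood at 132 to 197 CPM (median 173) against 202 to 315 CPM (median 237) and Flt1 at 109 to 151 CPM (median 135.2) against 152 to 187 CPM (median 175), and neither overlapped. Vwf (0.04) and Aplnr (0.31) were among the 5 members not called. Mural cells of vessels gave 2 higher and 6 lower of 13 (median log2 fold change -0.19), with the pericyte gene Abcc9, a potassium channel subunit, at -0.42 ± 0.08.

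The angiogenic ligand Vegfa was lower too, at 104 to 189.95 CPM (median 155) against 215 to 414 CPM (median 283) (fold change -1.06 ± 0.19 SE, adjusted p = 0.00253), with no overlap. It belongs to the hypoxia list, which gave 3 higher and 6 lower of 14 (median log2 fold change -0.10). Hif3a was lower at -1.58 ± 0.34 and the mitophagy gene Bnip3 at -0.49 ± 0.12. Hif1a, the oxygen-sensitive transcription factor, was higher at 167 to 219.5 CPM (median 191) against 102 to 172 CPM (median 121) (fold change 0.51 ± 0.10 SE, adjusted p = 0.00292).

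The arms of the circadian clock differed in opposite directions. The list gave 3 higher and 10 lower of 15 (median log2 fold change -0.55). The activator Arntl (BMAL1) was higher at 9.88 to 16.5 CPM (median 12.8) against 4.22 to 11.4 CPM (median 6.74) (fold change 0.78 ± 0.17 SE, adjusted p = 0.00459). Npas2, its partner, was higher at 1.49 to 5.29 CPM (median 3.11) against 0.828 to 2.25 CPM (median 1.52) (fold change 0.94 ± 0.27 SE, adjusted p = 0.0157), but was not called without L148 (adjusted p = 0.0570). Among the repressors, Nr1d1 (REV-ERB alpha) was lower at 75.1 to 129 CPM (median 95.1) against 112 to 206 CPM (median 177) (fold change -0.78 ± 0.14 SE, adjusted p = 0.00268). Per3 was lower at 27.4 to 55.04 CPM (median 38.7) against 39.3 to 83.6 CPM (median 69.03) (fold change -0.69 ± 0.12 SE, adjusted p = 0.00241), Per2 at -0.78 ± 0.15 and Cry2 at -0.42 ± 0.08. The classes overlapped in every clock gene. The hour of collection is not in the labels, and its part in the results was not tested.

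Liver-type transcripts had the largest fold changes, and the 10 most negative ones were all of this kind. Of the hepatocyte genes 0 of 12 tested members were called higher and 11 lower (median log2 fold change -3.79). Their summed level was 166 to 1064 CPM (median 403) in the high class and 511 to 7165 CPM (median 2535) in the low class. The 10 genes ran from Saa1 (-4.65 ± 1.25 SE, adjusted p = 0.0117) to Apom (-4.17 ± 0.84 SE, adjusted p = 0.00363), with Cyp3a11, Hamp (hepcidin), Cyp2a5, Mbl2, Mup20, Cpb2, Cyp1a2 and Mup12 between them. The calls of Cyp2a5 (without L145), Cyp3a11 (without L136 or L145) and Mup12 (without L143 or L148) were each lost when 1 library was left out. Mup20, a major urinary protein of a family with near-identical copies, was at 3.41 to 40.9 CPM (median 6.38) against 1.16 to 927 CPM (median 124). Fga, a fibrinogen chain, was at 2.26 to 20.8 CPM (median 3.08) against 0.193 to 237 CPM (median 61.9) (fold change -3.91 ± 1.02 SE, adjusted p = 0.0105). The level came from a few libraries of the low class, and L141, also of that class, had the lowest Alb of all 14. Without L136, L145 and L146 the hepatocyte calls were 0 higher and 0 lower (median -1.73). What part these transcripts had in the other results was not tested.

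The 10 largest positive fold changes held immune and less familiar transcripts. Itgad (CD11d), an integrin of tissue macrophages, was at 17.9 to 45.01 CPM (median 29.7) against 0.420 to 18.5 CPM (median 3.34) (fold change 2.52 ± 0.52 SE, adjusted p = 0.00424). Tph2, the neuronal tryptophan hydroxylase of serotonin synthesis, was at 65.7 to 148.5 CPM (median 109.95) against 2.24 to 74.3 CPM (median 9.78) (fold change 2.38 ± 0.58 SE, adjusted p = 0.00798). In both genes the highest low library reached just into the high class. Il13ra2, a decoy receptor for interleukin 13, was at 2.51 to 6.26 CPM (median 3.59) against 0.382 to 1.98 CPM (median 0.723) (fold change 2.37 ± 0.32 SE, adjusted p = 0.00223). Myh15, a myosin heavy chain, was at 6.62 to 21.9 CPM (median 7.64) against 0.494 to 5.03 CPM (median 1.38) (fold change 2.37 ± 0.49 SE, adjusted p = 0.00416). Nptx1, a neuronal pentraxin, was at 2.27 to 13.8 CPM (median 4.17) against 0.209 to 1.78 CPM (median 0.827) (fold change 2.94 ± 0.56 SE, adjusted p = 0.00311). These 3 separated the classes. Low levels in both classes were seen for Cck (cholecystokinin, medians 2.46 against 0.0963 CPM), the sphingolipid enzyme Sptlc3 (4.99 against 0.306 CPM), Serpinb1c (1.16 against 0.280 CPM) and Arl14epl (2.47 against 0.355 CPM). Gpx5, an epididymal transcript, was at 0.412 to 13.1 CPM (median 1.11) against 0.193 to 0.662 CPM (median 0.374) (fold change 2.67 ± 0.79 SE, adjusted p = 0.0169). Without L143 its fold change was 1.33 and no longer called (adjusted p = 0.0847), so the call rests on that library. It turned to -3.69 when L140 and L142 were added, L142 holding 6285 CPM.

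Leaving out L136, L145 and L146 lowered the counts of calls, in a fit of 7 libraries against 4. Over all genes this fit called 780 higher and 1124 lower, and each list below kept the number of tested members given above. The share of all genes called was not computed for this fit. The counts below are therefore descriptions, and no list is read from them as above or below that share. The lipid-associated macrophage list then gave 5 higher and 0 lower (median 0.75), and pan-macrophage genes 1 higher and 0 lower (median 0.59). Lysosomal genes gave 4 higher and 0 lower (median 0.35), cell cycle genes 11 higher and 0 lower (median 0.73), inflammasome and toll receptor genes 6 higher and 0 lower (median 0.76) and collagens 3 higher and 0 lower (median 0.23). White adipocyte genes gave 0 higher and 13 lower (median -0.50), and branched-chain amino acid genes 0 higher and 11 lower (median -0.38). Endothelial genes gave 0 higher and 9 lower (median -0.36), nuclear oxidative phosphorylation 0 higher and 8 lower (median -0.18) and clock genes 1 higher and 6 lower (median -0.51). The counts of other lists fell as well, by differing amounts. Phagocyte NADPH oxidase genes gave 0 higher and 0 lower (median 0.64), vacuolar ATPase subunits 1 higher and 0 lower (median 0.18) and MiT/TFE genes 1 higher and 0 lower (median 0.36). Fc receptor and complement genes gave 2 higher and 2 lower (median 0.35), MHC class II genes 1 higher and 0 lower (median 0.16), chemokines 3 higher and 1 lower (median 0.58) and their receptors 0 higher and 0 lower (median 0.31). Cytokines and NF-kB targets gave 2 higher and 1 lower (median 0.29), and matrix and fibrosis genes 7 higher and 2 lower (median 0.30). Of the metabolic lists, the mitochondrial genome gave 0 higher and 1 lower (median -0.22), the TCA cycle 0 higher and 3 lower (median -0.10) and fatty acid oxidation 2 higher and 2 lower (median -0.03). Lipogenesis gave 0 higher and 3 lower (median -0.21), insulin signalling 1 higher and 3 lower (median -0.17), glycolysis 0 higher and 0 lower (median 0.20) and lipolysis 0 higher and 8 lower (median -0.43). Sterol and lipid handling gave 4 higher and 4 lower (median 0.02), mural cells 1 higher and 1 lower (median -0.15) and the hypoxia list 1 higher and 3 lower (median 0.05). Of these lists, the median changed sign in hypoxia only.

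Within each vector most lists had medians of the same sign, with fewer calls. Among F11 libraries alone, 3 high against 4 low, edgeR called 1723 genes higher (12.2% of 14115) and 1443 lower (10.2%). Among GFP libraries alone, 4 against 3, edgeR called 0 genes, with 1718 higher and 1804 lower at an unadjusted p under 0.05 and 0.1248 as its lowest adjusted p. DESeq2 called 552 higher and 771 lower there. Of 1713 genes called higher in F11 libraries and present in both fits, 1708 (99.7%) had a positive fold change in GFP libraries, with medians of 0.73 in F11 and 0.45 in GFP. Of 1436 called lower, 1386 (96.5%) had a negative one in GFP, with medians of -0.51 and -0.33. Over all 13834 genes, 50.8% were positive in GFP. The interaction of class and vector tests the difference between vectors directly. It called 0 genes in edgeR, with 411 at an unadjusted p under 0.05 and 0.998 as its lowest adjusted p, and 1 gene, Tppp3, in DESeq2. With 3 or 4 libraries a class this test has little precision. Median fold changes of lipid-associated macrophage genes were 0.75 in GFP and 1.43 in F11. Those of cell cycle genes were 0.70 in GFP and 1.04 in F11, of white adipocyte genes -0.45 in GFP and -0.68 in F11 and of branched-chain amino acid genes -0.47 in GFP and -0.51 in F11. The vector itself, given the class, called 0 genes in edgeR, with 1071 at an unadjusted p under 0.05.

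**Figure D4:**
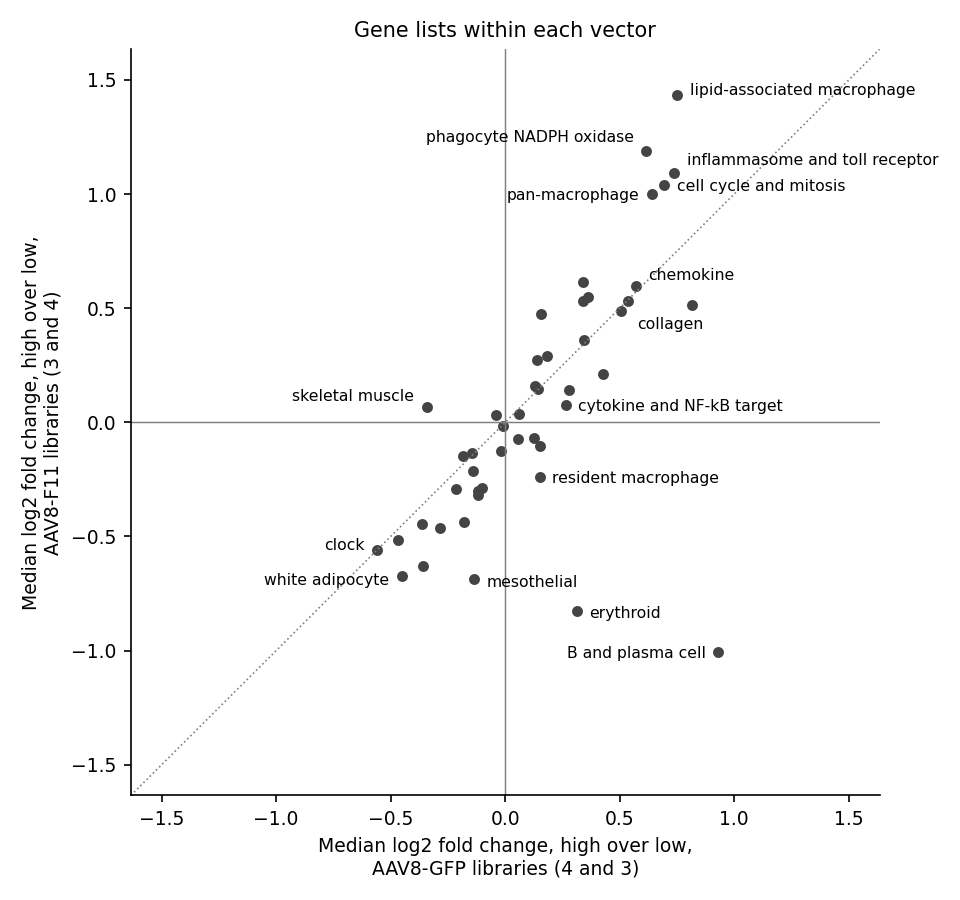
Median log2 fold change (high over low) of each gene list with at least 5 tested members in AAV8-GFP libraries (x axis, 4 high and 3 low) against AAV8-F11 libraries (y axis, 3 high and 4 low), with equality dotted and hepatocyte (-4.30 and -2.99) not drawn. Lipid-associated macrophage genes lie at 0.75 and 1.43, and B and plasma cell (0.93 and -1.01) and erythroid genes (0.31 and -0.83) are among the lists with opposite signs.

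The pair of adipose libraries outside the ranking held little Gpnmb, L140 (GFP) 33.5 CPM and L142 (F11) 174 CPM. Each called gene was read in them against the midpoint of the class medians. For 90.8% of the 3211 called-higher genes L140 lay on the low side, and for 63.6% L142 did. For 3029 called-lower genes the corresponding shares were 61.8% and 46.8%. L140 carried 2.35 CPM of Trem2, under every low library, and L142 9.74 CPM. Both libraries hold transcripts of other tissues, which take a share of their CPM. The shares on the low side were not computed over all genes tested. The percentages therefore describe these libraries and do not show that they follow the Gpnmb order.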

How the data were processed

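Libraries from white adipose tissue were made with a Nugen mRNA kit, per the labels' protocols. The authors deposited estimated counts per gene, not scaled to library size. The submitters' processing notes name kallisto 0.46 and GRCm38.p6. The transcript-to-gene step, annotation release and strand setting were "not given in the sources used here". Overlapping genes and gene families are therefore uncertain, and 30.8% of values were not whole. Of 36558 gene IDs, 35935 took a symbol from the GENCODE annotation of GRCm38 and 623 did not. Of 30 labelled samples the table holds 29, and 1 heart sample was not analysed here.

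Counts were rounded and Gpnmb was removed. Genes passed filterByExpr, grouped by vector, and TMM scaled the libraries. edgeR 4.0.16 (R 4.3.3) fitted vector and class by robust quasi-likelihood, two-sided, over all genes, with a biological coefficient of variation of 0.223. Printed CPM are shares of the column sum. DESeq2 1.42.0 and limma 3.58.1 (voom) were alternatives. The fit was also run on simulated counts, whose outcome is not reported here. Those genes were drawn independently and few were changed, so the run cannot measure false calls where many genes vary together. No 2 libraries of a vector agreed within sampling noise (chi-square per degree of freedom at least 6.76).

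The rule for named genes took the 10 largest fold changes each way among called genes with an ordinary symbol, averaging at least 1 CPM, and with at least 6 of 7 high libraries on that side. From each of 51 gene lists (790 of 791 entries found) it took up to 4 called members with the lowest p and 2 in the minor direction, or 2 where none was called. It added the 4 lowest p of the interaction, for 222 genes in all. The libraries, the ranking and the lists were chosen with earlier results of these data known. Lists are described by counts, with no test. A few named genes are not reported here.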

Additional observations from a re-analysis of the deposited data

Results flagged for a closer look

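Each named gene was checked in both classes for 1 library far from the other 6. The measure was the gap to the nearest library over the whole range of log2(CPM + 1), set against Dixon's critical value for 7 samples. This was done for 446 groups, and chance flags about 1 in 20 of such groups. Of 16 values past the limit, 12 were of L139, a GFP library of the low class at 985.5 CPM of Gpnmb, just under the boundary.

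L139 was the highest of its class for Cck (1.12 CPM), Sptlc3 (1.44), Il13ra2 (1.98), Cxcl16 (20.03), Col6a3 (562.7), Adam12 (84.5), Lum (149.8) and Canx (386.8). It was the lowest of its class for Lpin1 (387.7 CPM), Slc2a4 (78.3), Higd1b (2.73) and Per2 (22.99). In the high class, L147 stood out for the liver transcripts Cyp2a5 (4.62 CPM) and Mbl2 (1.85), L148 for the pericyte gene Higd1b (2.28) and L135 for the globin Hba-a2 (478.4).

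Signals of other tissues appeared in the libraries outside the ranking. In L140 the heart muscle transcripts Actc1, Myh6, Myl2 and Tnnt2 summed to 6483 CPM, against 21.4 to 138.3 CPM in the 14 ranked libraries. In L142 the male reproductive tract list summed to 7361 CPM, against 0.321 to 21.1 CPM.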

How the results depend on the processing

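No paired analysis was possible because the library numbers are not shared between groups. The counts of genes higher and lower (3211 and 3030) moved by over 1.5 times at an adjusted p under 0.01 (1756 and 1450), in GFP libraries alone (0 and 0) and in F11 libraries alone (1723 and 1443). They also moved in 2 fits added after seeing the data, without the 3 libraries richest in Alb (780 and 1124) and without the 2 highest in Gpnmb (1835 and 1566); each holds fewer libraries. They stayed within 1.5 times, between 2762 and 3506 higher and 2672 and 3303 lower, under other size factors, no filter, a filter at 1 CPM, DESeq2, voom, no vector covariate, log2 Gpnmb as predictor, the boundary libraries removed, L140 and L142 added, and a ranking by TMM-scaled CPM, which puts L139 in place of L138. Similar counts did not mean that all the same genes were called. Under the TMM ranking, 2495 of 2798 higher and 2190 of 2717 lower calls were shared with the main fit. With log2 Gpnmb as predictor, 2795 of 3506 higher and 2469 of 3303 lower calls were shared with it. Leaving out each library gave 2508 to 3495 higher and 2311 to 3310 lower, the lowest of both without L148. The interaction gave 1 gene with DESeq2 and 0 to 1 in the leave-one-out fits (Gm48417 without L145). The difference of Gpnmb by vector ranged from -465.7 to 112.6 CPM in leave-one-out, positive without L133 (112.6), L144 (11.9), L145 (60.2) and L146 (58.9).

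Of 211 called named genes, 26 lost the call in at least 1 leave-one-out fit. Other fits cost more calls. Without the 3 libraries richest in Alb, 104 of the 219 named genes in that fit lost the call. Without the 2 libraries highest in Gpnmb 48 of 220 did, and under the TMM ranking 34 of 222. Signs turned, with the cause not tested, when L140 and L142 were added for Gpx5 (-3.69), Ace (-0.11) and Cpt1b (-0.54). In GFP libraries alone they turned for Hba-a2 (0.13), Tppp3 (0.22), Sult1e1 (0.39), Fam3a (0.038) and Glp2r (-0.57), none of them called. Leave-one-out fits ranged from -0.028 to 0.16 for Glp2r, which was -0.024 without the Alb-rich libraries. List medians near 0 also turned. For T and NK cells the median was -0.053 with log2 Gpnmb as predictor and -0.049 to 0.41 in leave-one-out. For thermogenic genes it was -0.056 with that predictor, -0.018 with L140 and L142 and -0.070 in F11 libraries. For hypoxia it was 0.048 without the Alb-rich libraries. For skeletal muscle it was -0.014 with the 1 CPM filter, -0.25 with L140 and L142, -0.34 in GFP libraries, -0.17 under the TMM ranking, -0.064 without the Alb-rich libraries and -0.076 to 0.31 in leave-one-out. Low counts limit the precision of genes near 1 CPM.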

Other observations

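Lymphoid, granulocyte and other minor cell types gave mixed counts. T and NK cell genes gave 1 higher and 0 lower of 13 (median log2 fold change 0.29), the called gene being Il7r, the interleukin 7 receptor, at 75.8 to 177 CPM (median 89.9) against 15.3 to 79.8 CPM (median 35.2) (fold change 1.39 ± 0.39 SE, adjusted p = 0.0149). B and plasma cell genes gave 1 higher and 0 lower of 11 (median log2 fold change 0.02), with Sdc1 called. Their medians had opposite signs within the vectors (0.93 in GFP and -1.01 in F11), and this difference was not tested. Single libraries led Ms4a1 and Jchain of this list within each vector. Among GFP libraries this was L134 of the high class (16.2 and 70.2 CPM). Among F11 libraries it was L145 of the low class (8.52 and 45.5 CPM). Erythroid medians also had opposite signs (0.31 in GFP and -0.83 in F11), with none called of 7. Mast cell genes gave 4 higher and 1 lower of 6 (median log2 fold change 0.65): the protease Cpa3 was at 3.64 to 7.90 CPM (median 4.99) against 0.957 to 3.91 CPM (median 2.31) (fold change 1.04 ± 0.25 SE, adjusted p = 0.00702), Mcpt4 at 0.79 ± 0.18, and the receptor Kit was lower at -0.41 ± 0.13, a call lost without L137, L147 or L148 (highest adjusted p = 0.0685 in edgeR). Among the other mast cell calls, Cma1 was lost in 8 leave-one-out fits and Tpsb2 in 3. Neutrophil genes gave 2 higher and 1 lower of 5 (median log2 fold change 0.38), with S100a8, a calcium-binding alarmin, at 10.5 to 23.7 CPM (median 14.2) against 1.43 to 14.5 CPM (median 3.24) (1.62 ± 0.45 SE, adjusted p = 0.0129). The remaining calls in that list, Csf3r (higher) and Mmp9 (lower), were each lost in 9 leave-one-out fits (highest adjusted p = 0.127 and 0.0896 in edgeR). A further 5 of its genes were not tested. Mesothelial genes gave 0 higher and 0 lower of 12 (median log2 fold change -0.33), epithelial genes 0 higher and 0 lower of 4 (median log2 fold change -0.50), skeletal muscle genes 1 higher and 2 lower of 7 (median log2 fold change 0.20) and genes of Schwann cells and neurons 2 higher and 1 lower of 7 (median log2 fold change 0.03). Wap of the epithelial list and Ins2 of the pancreas list were at 0 in all 14 libraries, but other members were not. The epithelial list summed to 3.51 to 57.9 CPM in the high class and 6.54 to 16.4 CPM in the low class. The pancreas list summed to 31.7 to 45.8 CPM and 14.7 to 38.7 CPM. Spint4 and Defb2 of the male reproductive tract list, of which no member was tested, were also at 0 in all 14. The pancreas list had 1 tested member, Cela1, not called.

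Stress pathways were higher in part. Oxidative stress and iron genes gave 5 higher and 0 lower of 15 (median log2 fold change 0.17): Hmox1 (heme oxygenase 1) was at 81.8 to 153 CPM (median 90.3) against 38.1 to 74.2 CPM (median 47.2) (1.001 ± 0.20 SE, adjusted p = 0.00381), and Srxn1 (sulfiredoxin) at 53.03 to 87.7 CPM (median 63.8) against 33.5 to 48.9 CPM (median 42.1) (0.65 ± 0.12 SE, adjusted p = 0.0031), both without overlap. Slc11a1, a metal transporter of phagosomes, was at 1.03 ± 0.27. The unfolded protein response gave 9 higher and 3 lower of 19 (median log2 fold change 0.18), with the chaperone Hspa5 (BiP) at 539 to 803 CPM (median 683) against 413 to 657 CPM (median 489.6) (0.36 ± 0.08 SE, adjusted p = 0.00434) and Asns (asparagine synthetase) lower at 23.3 to 30.8 CPM (median 26.5) against 29.96 to 43.5 CPM (median 38.97) (-0.49 ± 0.10 SE, adjusted p = 0.0031). Without L136, L145 and L146 the unfolded protein response gave 1 higher and 1 lower (median 0.15), oxidative stress and iron 3 higher and 0 lower (median 0.25) and mast cell genes 2 higher and 0 lower (median 0.63).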
